A study of Mus musculus with 20 samples.

Results

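The CREB and ATF2 family genes are Creb1, Crem, Atf1, Atf2, Atf7 and Creb5, 6 of the 21631 protein-coding genes placed on mouse chromosomes 1 to 19 and X. They were taken by name, and each ATF4 peak was assigned to a member when its centre lay within 1 kb of either end of the gene, elsewhere inside the gene, or outside it within 50 kb. The cells were C2C12, a wild-type line of mouse myoblasts. They received 100 nM thapsigargin, which blocks the calcium pump of the endoplasmic reticulum and causes stress there, or DMSO, the solvent, each for 6 h. ATF4, a transcription factor made during this stress, was mapped by CUT&Tag, where a transposase tethered through an antibody cuts and tags the DNA next to the factor for sequencing. The results rest on 1 deposited ATF4 peak list for thapsigargin and 1 for DMSO, each standing for a group of 2 samples, out of 20 samples in 10 groups. The lists give positions only, so there is no height, no replicate error and no known read depth, and the thapsigargin list is 10.7 times as long (8619 peaks) as the DMSO list (803 peaks). The labels do not say that the samples of a group came from separate cultures.

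The members encode transcription factors of the basic leucine zipper (bZIP) class. CREB, CREM and ATF1, encoded by Creb1, Crem and Atf1, form dimers on the cAMP response element, and on phosphorylation by protein kinase A they recruit the coactivators CBP and p300. ATF2, ATF7 and CREB5, encoded by Atf2, Atf7 and Creb5, form dimers with each other and with JUN and are switched on by the stress kinases JNK and p38. ATF4 shares the bZIP fold, but it usually pairs with C/EBP proteins and reads the amino acid response element, a composite site with a TGATGNAA core.

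In thapsigargin-treated cells ATF4 lay at an end of 5 of the 6 genes, namely Creb1, Crem, Atf2, Atf7 and Creb5, and in DMSO-treated cells at an end of 0 of 6. Among all protein-coding genes, 15.1% had a thapsigargin peak at an end and 1.29% a DMSO peak. The count in thapsigargin was above the background share, while a count of 0 of 6 in DMSO says nothing of the family. The members were chosen with earlier results of these data known, so the thapsigargin count is not independent support for a trait of the family. Atf1 was the member without an end peak. In all, 14 thapsigargin peaks and 1 DMSO peak fell at, in or within 50 kb of the 6 genes. The thapsigargin peaks were 5 at ends, 4 in gene bodies and 5 outside, and the DMSO peak lay in the body of Creb5. Restricting each list to peaks at least as wide as its median left 3 of 6 members with a thapsigargin end peak (7.56% of all genes), and keeping only the 803 widest thapsigargin peaks left 0 of 6 (1.32% of all genes).

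**Figure D1:**
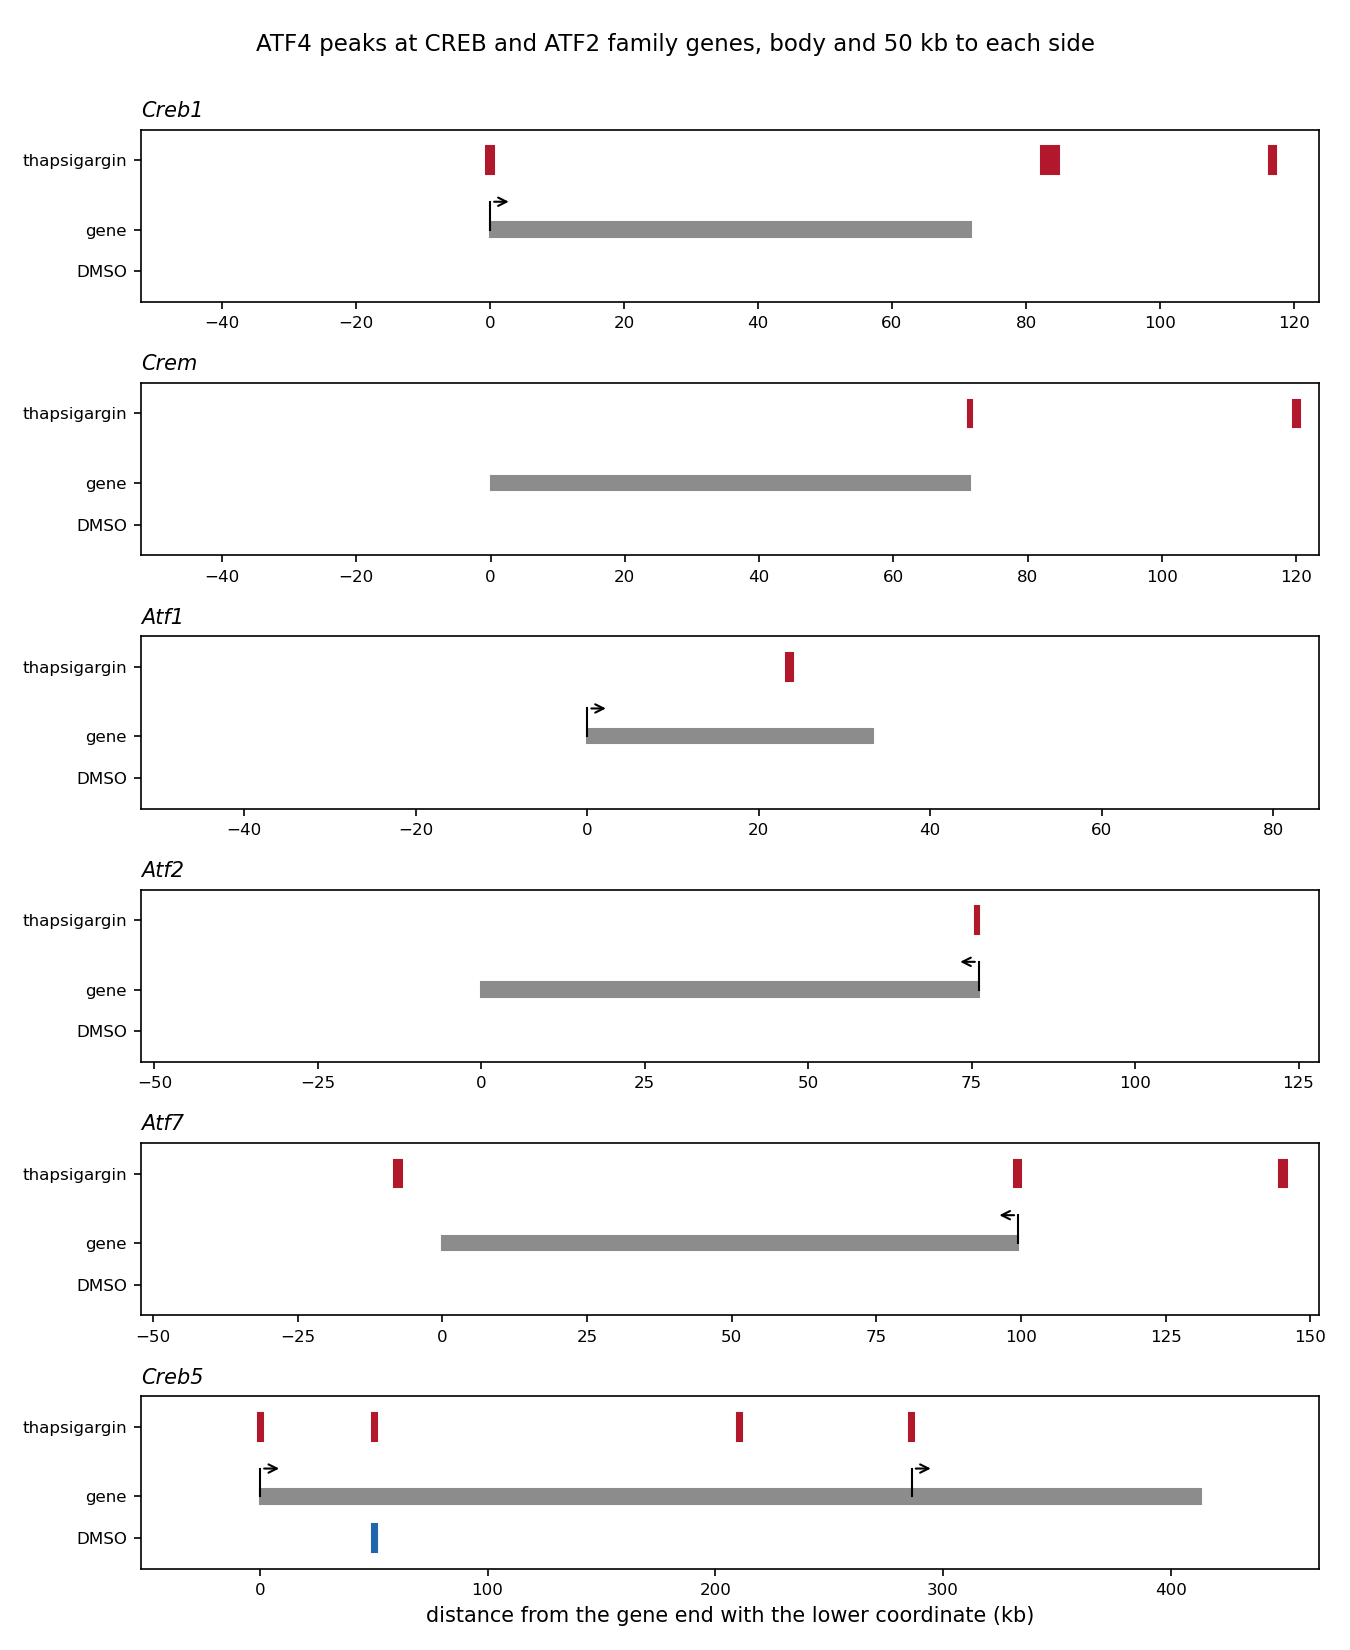
ATF4 peaks at the 6 members, drawn as boxes above the gene (thapsigargin) and below it (DMSO), in kb from the gene end with the lower coordinate; peaks too narrow to see are widened, the grey bar is the gene and arrows mark annotated transcription starts (none was used for Crem). Of 14 thapsigargin peaks 5 lie at gene ends, and the only DMSO peak lies in Creb5 under a thapsigargin peak.

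Positions are those of mm10, with gene spans and transcription starts from RefSeq on GRCm38.p6, the assembly to which mm10 corresponds. The starts come from a table of promoter windows, each running from 250 bases before a start to 50 bases after it, which held 6 windows for 5 members and none for Crem. Around 4 of these windows the findings can be read in the sequence itself, printed 5′ to 3′ on the strand of the gene, from RefSeq. Both Creb5 windows lay wholly inside a thapsigargin peak and hold the amino acid response core. The Creb1 window is shown as one wholly inside a peak with no match, and the Atf1 window as one with no peak. Capitals mark matches on either strand to the cAMP response element TGACGTCA, its shorter core TGACG, the amino acid response core TGATGNAA and the AP-1 element TGANTCA, where the shorter core lies within the full element.
Creb5, outer start, chr6:53287053-53287352, plus strand: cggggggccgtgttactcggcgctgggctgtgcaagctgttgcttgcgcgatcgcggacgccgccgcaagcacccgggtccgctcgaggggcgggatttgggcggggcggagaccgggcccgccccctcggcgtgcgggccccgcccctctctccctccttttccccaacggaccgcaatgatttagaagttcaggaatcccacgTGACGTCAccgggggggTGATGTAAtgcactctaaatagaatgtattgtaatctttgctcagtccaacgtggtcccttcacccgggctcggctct
Creb5, inner start, chr6:53573124-53573423, plus strand: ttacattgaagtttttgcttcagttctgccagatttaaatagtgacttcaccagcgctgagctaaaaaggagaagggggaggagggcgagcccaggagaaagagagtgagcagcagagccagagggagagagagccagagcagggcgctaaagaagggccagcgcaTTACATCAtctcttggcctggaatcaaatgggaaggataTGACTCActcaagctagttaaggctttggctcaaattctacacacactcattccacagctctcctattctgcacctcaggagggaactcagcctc
Creb1, chr1:64532554-64532853, plus strand: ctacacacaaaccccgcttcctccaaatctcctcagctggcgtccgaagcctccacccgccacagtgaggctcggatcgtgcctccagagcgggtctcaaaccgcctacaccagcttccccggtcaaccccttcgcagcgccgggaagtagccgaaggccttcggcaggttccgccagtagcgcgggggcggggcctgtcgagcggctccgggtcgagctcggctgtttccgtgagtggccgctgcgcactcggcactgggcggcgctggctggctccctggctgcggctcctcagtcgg
Atf1, chr15:100227609-100227908, plus strand: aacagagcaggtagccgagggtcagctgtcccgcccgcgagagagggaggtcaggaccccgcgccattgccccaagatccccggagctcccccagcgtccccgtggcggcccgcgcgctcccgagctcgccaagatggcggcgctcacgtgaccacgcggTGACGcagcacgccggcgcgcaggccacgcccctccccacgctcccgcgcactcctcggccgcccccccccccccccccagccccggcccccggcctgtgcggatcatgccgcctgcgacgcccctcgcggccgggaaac

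Creb5, the longest member (chromosome 6, 53287226 to 53700364, 413 kb), held more peaks than any other member. It carried 4 thapsigargin peaks and 1 DMSO peak, all centred within the gene. Its end peak in thapsigargin spanned 53286827 to 53288319, was 1493 bp wide and was centred 347 bp inside the gene, 270 bp downstream of the outer annotated start. It was the widest end peak of the family, at percentile 85.3 of the thapsigargin list by width. No DMSO peak lay within 50 kb of that end, the nearest being centred 50.4 kb into the gene.

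Upstream of the outer Creb5 start, the full cAMP response element TGACGTCA begins 45 bases before the start, and the amino acid response core, as TGATGTAA, begins 28 bases before it. Both matches fell inside the thapsigargin peak. The full cAMP element was found in 1.8% of 32619 promoter windows of this length, of all gene types, and the amino acid response core in 3.87%. The shorter core TGACG was found in 20.9% and the AP-1 element in 7.85%. Among the 21045 windows of protein-coding genes, the full cAMP element was found in 2.26% and the amino acid response core in 3.45%. There the shorter core was found in 23.8% and the AP-1 element in 7.04%. Of the 6 windows of the members, 1 held the full cAMP element, 2 held its shorter core, 2 the amino acid response core and 1 the AP-1 element. A match of letters is a description and shows no binding.

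The inner annotated start of Creb5 lies 286 kb downstream of the outer one, and a thapsigargin peak lay there as well. This peak spanned 53573015 to 53573618, was 604 bp wide, covered the whole promoter window and was centred 57.5 bp upstream of the start. Its window holds the amino acid response core as TTACATCA, the reverse strand of TGATGTAA, beginning 84 bases before the start, and the AP-1 element TGACTCA, beginning 45 bases before it. Creb5 was marked at both of its annotated starts in thapsigargin and at neither in DMSO. A DMSO peak lay within 1 kb of a start in 1.38% of the protein-coding genes with one, so its absence is not particular to Creb5. Of 802 protein-coding genes with annotated starts at least 10 kb apart, 12 (1.5%) had thapsigargin peaks within 1 kb of starts that far apart, a count made after the Creb5 values had been seen.

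The other peaks of the Creb5 body lay away from the annotated starts of Creb5. One thapsigargin peak spanned 53336965 to 53338246 (1282 bp), 50.4 kb into the gene, and overlapped the DMSO peak of the family, 53337203 to 53338062 (860 bp). The DMSO peak lay wholly inside the thapsigargin peak, with margins of 238 bp on the lower side and 184 bp on the higher side and centres 27 bp apart. The thapsigargin peak was 1.49 times as wide, close to the median of 1.55 over the 797 thapsigargin peaks that overlap a DMSO peak. Among the 14 thapsigargin peaks of the members 1 overlapped a DMSO peak, beside 9.25% of all thapsigargin peaks, and the 1 DMSO peak overlapped a thapsigargin peak, as 99.5% of all DMSO peaks did. The remaining body peak, 53497371 to 53498296 in thapsigargin (926 bp), lay 75540.5 bp upstream of the inner start and 203 kb from the nearer gene end. The nearest annotated start of another gene, that of the long non-coding RNA gene Gm38814, was 4296.5 bp from its centre.

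A body peak in thapsigargin was found in 10.1% of all protein-coding genes and in 2 of 6 members, and a DMSO body peak in 1.3% of all genes and in 1 of 6. Long genes have more room for such peaks. Per 100 kb of gene body, Creb5 held 0.73 thapsigargin peaks and 0.243 DMSO peaks, against 0.302 and 0.0294 over all protein-coding genes. Atf1, a much shorter gene, held 3.19 thapsigargin peaks and 0 DMSO peaks per 100 kb, and the 6 members together 0.531 and 0.133. These rates rest on 3 thapsigargin peaks and 1 DMSO peak in Creb5 and on 1 thapsigargin peak in Atf1. Creb1, Crem, Atf2 and Atf7 held 0 body peaks in either list, which for Crem includes the region of the internal promoter known to make the short repressor ICER.

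Creb1, which encodes CREB, had the end peak centred nearest to an annotated start, among the members with such a start (Crem had none). Its thapsigargin peak on chromosome 1 spanned 64532213 to 64533359 (1147 bp, percentile 60.8 by width) and was centred 18 bp upstream of the start and 8 bp outside the gene. It covered all 300 bases of the promoter window, in which none of the 4 motifs was found. The nearest DMSO peak was 231 kb from a gene end.

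Crem, which encodes activator and repressor forms, had the narrowest end peak of the family. On chromosome 18 the thapsigargin peak spanned 3337468 to 3338084 (617 bp, percentile 10.2) and was centred 3 bp outside the gene end with the higher coordinate. A long non-coding RNA gene, Gm6225 (3336416 to 3366863), overlaps that end of Crem, and the whole peak lies inside the span of Gm6225, while only part of it lies inside Crem. The nearest DMSO peak was 1380 kb away.

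Atf1 differed from the other members in having no end peak in either list. Its only thapsigargin peak was in the gene body, on chromosome 15 from 100251069 to 100251879 (811 bp, percentile 25.9), 23615 bp downstream of the annotated start and 9.77 kb from the other end. The Atf1 promoter window holds the shorter core TGACG, beginning 90 bases before the start, and neither the full cAMP element nor the amino acid response core. No thapsigargin peak lay outside Atf1 within 100 kb, and the nearest DMSO peak was 807 kb away.

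Atf2, which encodes the JNK and p38 target ATF2, had a narrow end peak in thapsigargin that lay downstream of its start. On chromosome 2 the peak spanned 73891995 to 73892646 (652 bp, percentile 12.7) and was centred 318.5 bp downstream of the start, on the minus strand. It reached over the start and covered 57 of the 300 bases of the promoter window, in which none of the 4 motifs was found. The start of the long non-coding RNA gene Gm10822, which runs on the opposite strand, lay inside the same peak, 87.5 bp from its centre, nearer than the start of Atf2. The peak cannot be assigned to one of these genes from position alone.

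Atf7, which encodes the close relative of ATF2, had an end peak in thapsigargin on chromosome 15 from 102624667 to 102625909 (1243 bp, percentile 69.1). It was centred 176 bp downstream of the annotated start and covered all 300 bases of the promoter window, which held none of the 4 motifs. The nearest DMSO peak was 120 kb from a gene end.

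**Figure D2:**
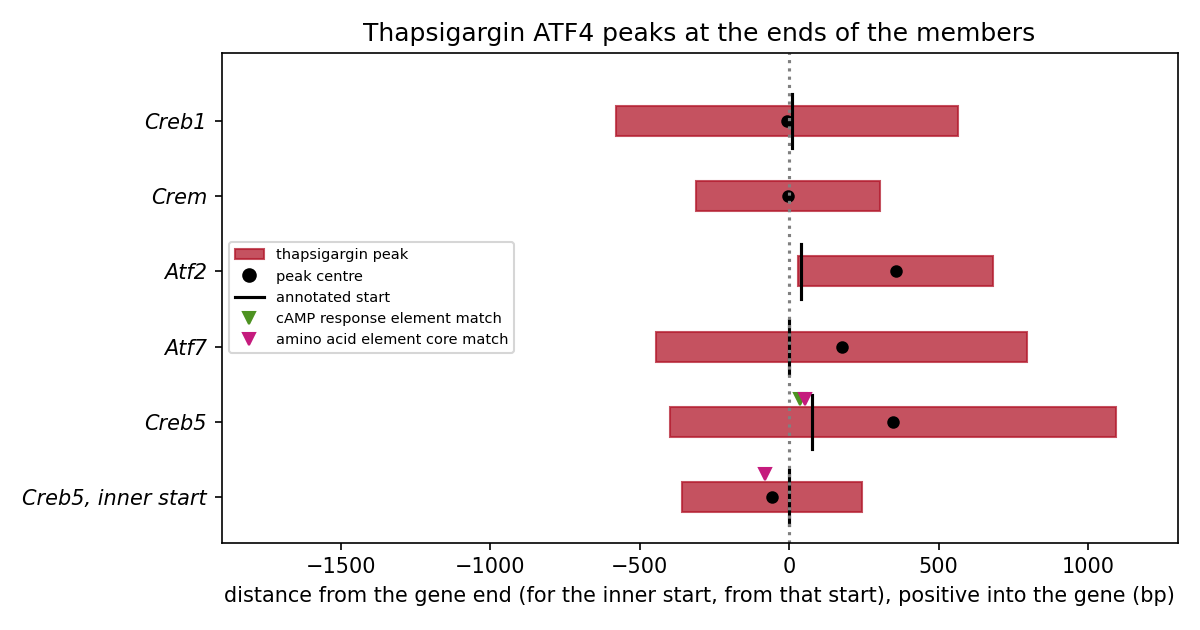
Extent of the thapsigargin peaks at gene ends, in bp from the end of the gene (0) and positive into the gene, and, in the lowest row, of the peak at the inner start of Creb5, in bp from that start; dots are peak centres, black lines annotated starts and triangles motif matches. The peaks with an annotated start all cover it, and motif matches of the kinds shown are seen at Creb5 alone among the rows drawn, Crem not searched.

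The centres of the 5 end peaks lay between 3 and 356.5 bp from the gene end, and the next nearest peak to a member's end was 7.66 kb away, so none stood near the 1 kb limit. All 4 end peaks of genes with an annotated start covered that start, as 84.7% of 3287 starts with a thapsigargin peak within 1 kb did. Widths ran from 617 bp at Crem to 1493 bp at Creb5 with a median of 1147 bp, and the 2739 thapsigargin peaks at gene ends in the whole list had a median of 1027 bp and quartiles of 787.5 and 1329 bp. The CREB subfamily (Creb1, Crem, Atf1) had 2 of 3 members with a thapsigargin end peak and the ATF2 subfamily (Atf2, Atf7, Creb5) 3 of 3. In DMSO each had 0 of 3. The shares of all protein-coding genes were 15.1% in thapsigargin and 1.29% in DMSO. The thapsigargin counts differ only by Atf1, and 0 of 3 in DMSO says nothing of either subfamily. By annotated starts alone, 4 of 5 members were marked in thapsigargin, against 16.4% of 17274 genes with a start, and 0 of 5 in DMSO, against 1.38%.

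**Figure D3:**
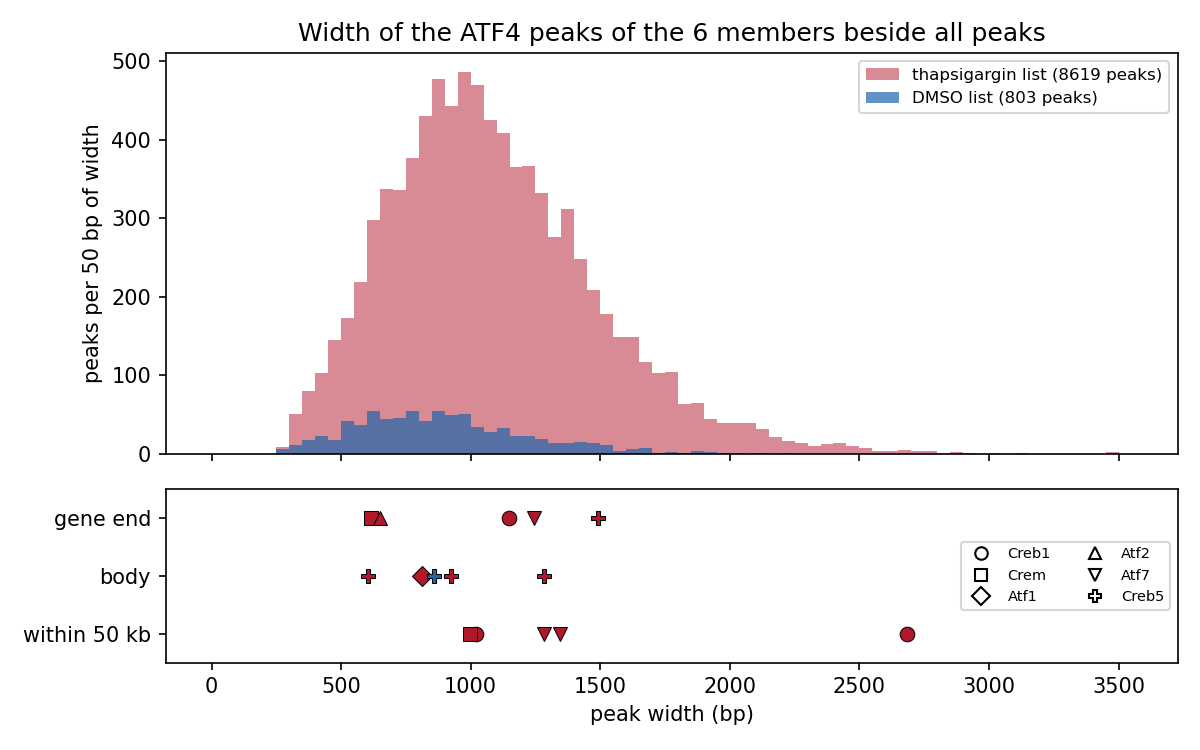
Width in bp of all peaks of the thapsigargin list (red) and of the DMSO list (blue), as counts per 50 bp, and below it the width of each peak of the members by place, with a symbol per gene. The end peaks run from 617 to 1493 bp, and the widest peak near a member is 2683 bp wide, within 50 kb of Creb1.

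Outside the genes, thapsigargin peaks within 50 kb were found at Creb1, Crem and Atf7, with 2, 1 and 2 peaks, and at 40% of all protein-coding genes, so 3 of 6 members is near the background share. DMSO peaks were found there at 0 of 6 members, beside 5.71% of all genes, a count that says nothing of the family. For none of the 5 peaks was the member the nearest protein-coding gene. The widest lay 11.9 kb beyond the far end of Creb1 on chromosome 1, from 64615082 to 64617764, and at 2683 bp it was number 18 of 8619 by width. It lay inside Mettl21a, which encodes a lysine methyltransferase, and reached exactly to the annotated start of that gene. The second peak near Creb1 (64649108 to 64650126, 1019 bp) was 45.1 kb from the gene and 31853 bp from the nearest other annotated start, that of Mettl21a.

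The peaks near Atf7 and Crem also belonged to neighbours by position. The peak 7.66 kb from the end of Atf7 (102517649 to 102518930, 1282 bp) covered the start of Tarbp2, which encodes a partner of Dicer, 97.5 bp from the peak centre. By gene ends its nearest gene was Map3k12, which encodes a kinase upstream of JNK, at 1.29 kb. The peak 45.8 kb from Atf7 (102670563 to 102671905, 1343 bp) covered the start of Atp5g2, a subunit gene of ATP synthase, 187 bp from its centre. The peak 48.6 kb from Crem (3385908 to 3386904, 997 bp) lay inside Cul2, the gene of a ubiquitin ligase scaffold, 3.44 kb from its end. Beyond 50 kb and within 100 kb, the thapsigargin list held 1 peak on the side of Creb1, at 86.3 kb, and 2 on that of Atf7, at 96.8 and 98.3 kb. These too lay nearest to other genes, the first 173 bp from an end of Ccnyl1. The peaks beyond Atf7 lay 132 bp and 1.58 kb from an end of Calcoco1.

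Among the other bZIP genes, the counts per list show where the family stood. The AP-1 genes had 6 of 11 members with a thapsigargin end peak and 1 of 11 with a DMSO end peak, Jdp2, beside 15.1% and 1.29% of all protein-coding genes. The widest AP-1 end peaks in thapsigargin were those of Jun, Fosb, Jdp2 and Junb. The C/EBP and ATF stress genes had 5 of 9 in thapsigargin and 4 of 9 in DMSO, namely Ddit3, Atf3, Cebpb and Cebpg. The CREB3 and ATF6 list, which covers bZIP factors held in the membrane of the endoplasmic reticulum and adds Xbp1 and Crebzf, had 3 of 9 in thapsigargin (Atf6, Xbp1 and Creb3l2) and 1 of 9 in DMSO (Xbp1). The NRF, BACH and MAF genes had 4 of 13 in thapsigargin (Nfe2l2, Nfe2l1, Bach1 and Mafa) and 1 of 13 in DMSO (Nfe2l1), and the PAR bZIP genes 1 of 4 (Tef) and 0 of 4. Over these 46 genes, 19 had an end peak in thapsigargin and 7 in DMSO, beside 5 of 6 and 0 of 6 in the CREB and ATF2 family. No test of these differences was made, and with a window of 500 bp the 46 genes had 11 in thapsigargin and 4 in DMSO, beside 12.5% and 0.962% of all genes.

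Which of these genes looked most like each member was measured by the distance between their 6 peak counts, at ends, in the body and within 50 kb in each list (0 when all 6 are equal). Creb1 and Atf7 were matched by Fosb at a distance of 0, with Cebpd first in alphabetical order among several genes tied at 1. Crem was matched at 0 by 3 genes, of which Cebpd and Jun come first in alphabetical order. Atf2 was matched by Mafa at 0, with Bach1 first in alphabetical order among several genes tied at 1. Atf1 had no exact match, with Bach1 and Batf the first of 11 genes at 1. Creb5 was farthest from any, with Nfil3 at 2 and Bach1 the first of several genes tied at 2.24. Among all protein-coding genes, the 6 counts of Creb1 and Atf7 were found in 276 genes, those of Crem in 815, those of Atf1 in 638 and those of Atf2 in 1199, the members included. The counts of Creb5 were found in 3 genes, Creb5, Hsd17b12 and Aig1, and Hsd17b12 and Aig1 were chosen for naming after the values were seen. Of the 3267 genes with a thapsigargin end peak, 2687 (82.2%) had no DMSO peak at the end, in the body or within 50 kb, as Creb1, Crem, Atf2 and Atf7 had none.

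The regulators of the family were marked at a share near the background of 15.1%. Of 45 genes for kinases, coactivators and inhibitors of CREB and ATF2, 8 (17.8%) had an end peak in thapsigargin and 0 in DMSO. The DMSO share over all protein-coding genes was 1.29%, so a count of 0 of 45 says nothing of these genes. In the list of CREB kinases, which includes regulatory subunits of protein kinase A, 2 of 17 had a thapsigargin end peak. They were Prkar1b, such a subunit (1528 bp), and Rps6ka5, which encodes the CREB kinase MSK1 (713 bp). With a window of 500 bp the count was 1 of 17, beside 12.5% of all genes. Among the kinases of the JNK and p38 branch the genes with an end peak were 2 of 11. They were Map2k3, which encodes a kinase that activates p38 (1797 bp), and Map2k7, which encodes one that activates JNK (1485 bp). Of the 5 coactivators 1 was marked, Ep300, which encodes p300 (1454 bp). Of the 12 inhibitors 3 were, all phosphatase catalytic subunits, Ppp2ca (1599 bp), Ppp1ca (978 bp) and Ppp1cb (550 bp). The salt-inducible kinases had 0 of 3, too few genes to set against the background of 15.1%.

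Textbook targets of cAMP signalling carried end peaks at 8 of 21 genes in thapsigargin (38.1%), Crem among them, and at 1 of 21 in DMSO (4.76%), beside 15.1% and 1.29% of all protein-coding genes. The widest in thapsigargin were at Fosb (2317 bp), Egr1 (1954 bp) and Ier2 (1923 bp), immediate early genes, and at Dusp1, which encodes a phosphatase of JNK and p38 (1416 bp). Ier2 was the target with a DMSO end peak, 1538 bp wide. The target list shares Fos and Fosb, both with a thapsigargin end peak, with the AP-1 genes counted above. With a window of 500 bp the counts were 5 of 21 in thapsigargin and 0 of 21 in DMSO, beside 12.5% and 0.962% of all genes. The list was chosen with results of these data known.

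**Figure D4:**
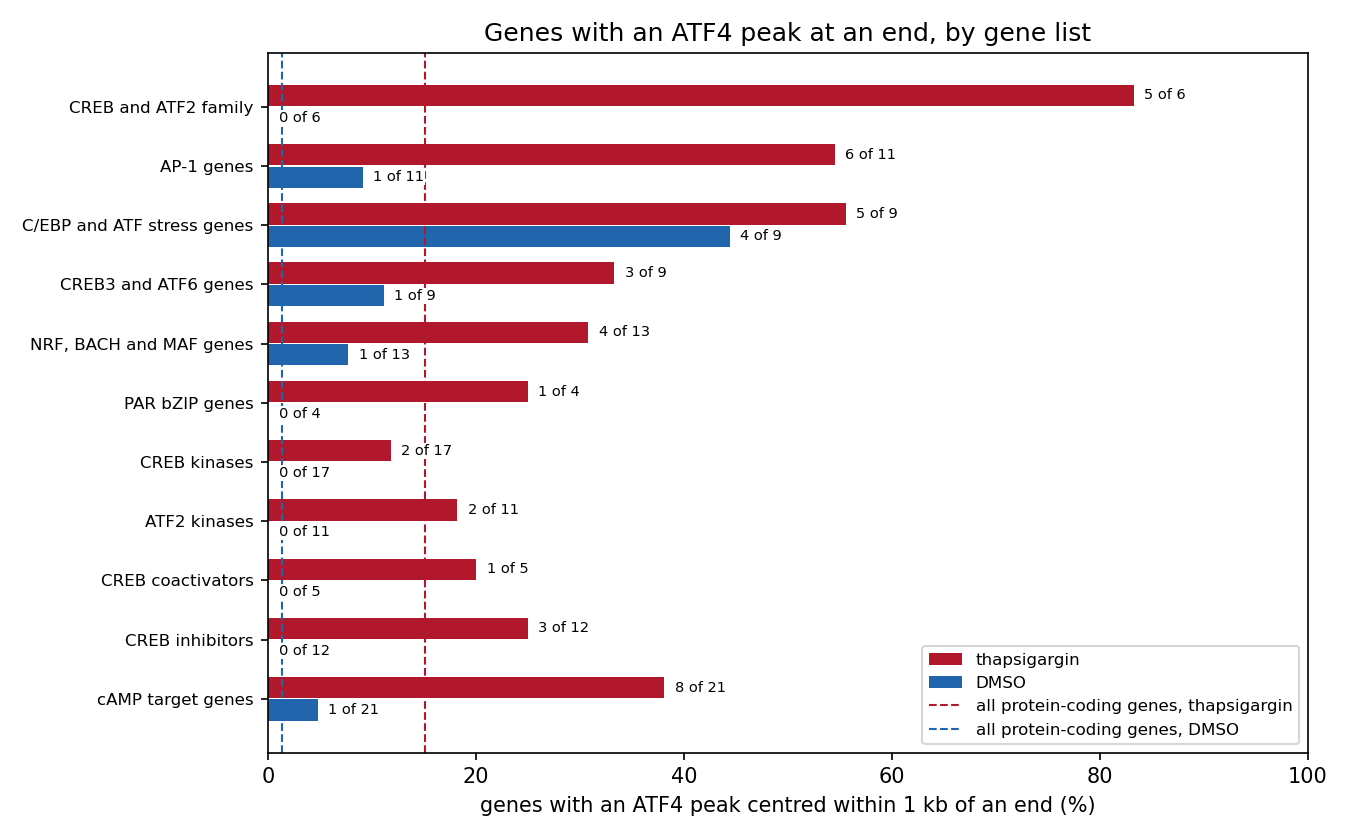
Percent of the genes of each list whose end lay within 1 kb of the centre of an ATF4 peak, in thapsigargin (red) and DMSO (blue), with counts beside the bars and dashed lines for all protein-coding genes (15.1% and 1.29%). The CREB and ATF2 family has 5 of 6 and 0 of 6, and its kinases, coactivators and inhibitors lie between 11.8% and 25% in thapsigargin.

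The identity of the cells could not be checked from peaks of 1 factor: an end peak was found at 0 of 4 myoblast genes (Myod1, Myf5, Des, Pax7) and at 0 of 5 genes of other cell types in either list. With 15.1% of all protein-coding genes marked in thapsigargin and 1.29% in DMSO, counts of 0 in so few genes say nothing of the cells.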

How the data were processed

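CUT&Tag peaks of ATF4 in C2C12 cells were taken from the 2 lists the authors deposited, 1 per treatment, each with 3 columns (chromosome, start and end) and no height, score, p or q. Per the submitters' processing notes, the build was mm10 and the tools were MACS2 2.2.7.1, Bowtie2 and Trim Galore 0.6.10; their roles and thresholds, any control library and the way samples were combined were not given in the sources used here. The other 8 groups were not analysed here.

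Starts were moved to count from 1. Peak centres were set against gene spans and, where given, transcription starts of RefSeq (GRCm38.p6), with Python 3.11.15, numpy 2.4.6, pandas 2.3.3 and matplotlib 3.10.9. The promoter table holds no window for Crem. No test was run: each condition has 1 list, and results are counts beside those of all protein-coding genes. Peaks overlapped when they shared at least 1 bp. The peak search was tested on simulated data.

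The members and gene lists were chosen with earlier results of these data known. Named were all members, the gene next to each of their peaks, for each list every gene with a DMSO end peak and the 4 with the widest thapsigargin end peak, and the up to 2 bZIP genes nearest in counts. The widths of the bZIP lists other than the family are not repeated here. Alternatives were other windows, edge distances, starts only, wider peaks, all gene types and other overlap rules.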

Additional observations from a re-analysis of the deposited data

How the results depend on the processing

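No paired analysis was possible because the 2 samples of a treatment share 1 list, and for the same reason no replicate could be left out. Of 93 alternative values, 57 stayed within 1.5 times the reported count or, for shares of all genes, within the 95% interval, and 36 moved. Those that stayed include DMSO counts of 0 that remained 0. With 803 DMSO peaks and few genes per list, these had little room to move. The 5 of 6 members with a thapsigargin end peak were the same number with windows of 500 bp, 3 kb and 5 kb and with distances to the peak edge. They were 3 with peaks at least as wide as the list median (1037 bp) and 0 with as many thapsigargin as DMSO peaks, the 803 widest, all at least 1635 bp. The 4 body peaks in thapsigargin became 1 in the wider part. The 5 peaks within 50 kb became 2 within 20 kb, 8 within 100 kb, 3 in the wider part and 0 when the member had to be the nearest gene. The regulator and target genes with a DMSO end peak, 1 as reported, were 0 with 500 bp and 2 with 5 kb. The other bZIP genes, 19 in thapsigargin and 7 in DMSO, were 11 and 4 with 500 bp. With all gene types in place of protein-coding genes, the share of genes with an end peak was 8.45% in thapsigargin (15.1% as reported) and 0.702% in DMSO (1.29% as reported). Read depth is unknown and may set which DMSO peaks were called.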
